A study of Homo sapiens with 22 samples.

Results

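Isolated poly(A) sites are here positions counted as 3' ends of polyadenylated RNA, with no other well-counted site close by on the same strand. They were taken from a table of 1618880 poly(A) sites counted in Kasumi-1 cells, an established human acute myeloid leukaemia line with the RUNX1-RUNX1T1 fusion gene. Sites of the mitochondrial chromosome were left out, and the others had to reach a mean of at least 5 raw reads over 10 libraries. Consecutive sites of a strand at most 2000 nt apart were joined into runs. The isolated sites are the runs of exactly 1 site. There were 15589 of them, which is 44.8% of the 34780 sites that reached the read limit and 70.4% of the 22145 runs. The other 19191 sites lay in runs of 2 or more. The sites were chosen by their mean reads and their positions, so both are given as a description, without a test.

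All groups were Kasumi-1 cells grown in RPMI with FBS, transduced with a lentivirus and selected with puromycin. The virus carried a control shRNA (3 libraries), shRNA 1 against FIP1L1 (4 libraries) or shRNA 2 against FIP1L1 (3 libraries). The assay was 3'READS, which counts reads at the 3' ends of polyadenylated RNA. The labels call the libraries biological replicates of a single line without naming separate transductions; the p-values therefore cover only the spread from library to library, which may be technical. In bulk RNA, fewer cells making a transcript and less of it per cell cannot be told apart.

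Cleavage and polyadenylation end nearly all mRNAs. The cleavage and polyadenylation specificity factor, CPSF, binds the hexamer signal upstream of the cut, and FIP1L1 is the CPSF subunit that contacts U-rich sequence near that signal and helps to recruit poly(A) polymerase. Many genes carry several poly(A) sites and can switch between them, which changes the 3' end of the mRNA. A site isolated by this rule can still share its transcript with another well-counted site, since only the nearest 2000 nt were searched.

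The targeted gene and the cell line were checked in 12 RNA-seq libraries of the same design, with 4 per group. FIP1L1 mRNA lay between 38.9 and 44.1 CPM (read counts relative to the TMM-scaled library size) in the control, between 14.1 and 17.6 with shRNA 1 and between 18.7 and 20.2 with shRNA 2, so neither shRNA group overlapped the control. The Kasumi-1 markers were present in every library, among them RUNX1T1 at 65.8 to 195 CPM, KIT at 1068 to 1510 CPM, CD34 at 43.7 to 298 CPM and MPO at 6058 to 17349 CPM. Of markers of other blood cells and fibroblasts, MS4A1 (B cells), CD3E and CD3D (T cells), HBB (erythroid cells), COL1A1 and COL1A2 (fibroblasts) stayed at or under 2.03 CPM, with MS4A1, HBB and COL1A2 at 0 in every library. Of the epithelial markers, KRT8 stayed at or under 0.966 CPM and EPCAM lay between 38.2 and 150 CPM.

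The 3'READS libraries held 5666102 to 10846661 reads. Control replicate 3 and replicates 1 and 2 of shRNA 1 stood apart from the other libraries of their groups. Chi-square per degree of freedom over site counts was 20.1 to 34.8 for every pair within a group that held at least 1 of these 3 libraries, and 3.05 to 4.85 for the other pairs, so no pair agreed within sampling noise. Leading counts are therefore also given without these 3 libraries, a choice made after their counts had been seen. That leaves 2 control, 2 shRNA 1 and 3 shRNA 2 libraries.

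Isolated sites were mostly low. Their median level was 14.7 mean reads (quartiles 7.6 and 50.8), against 20.5 (quartiles 9 and 72.8) for the sites in runs of 2 or more. Of the 15589 isolated sites, 5678 lay between 5 and 10 mean reads and 403 reached 1000 or more. A small group carried much of the signal: 261 sites held 50% of all reads at isolated sites, and the 5 most abundant held 9.73%. Reads were present in all 10 libraries at 11620 isolated sites (74.5%), against 77.6% of the sites in runs. At 24 isolated sites a single library held over 50% of the reads, and for 15 of these it was shRNA 1 replicate 2, one of the libraries that stood apart.

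**Figure D1:**
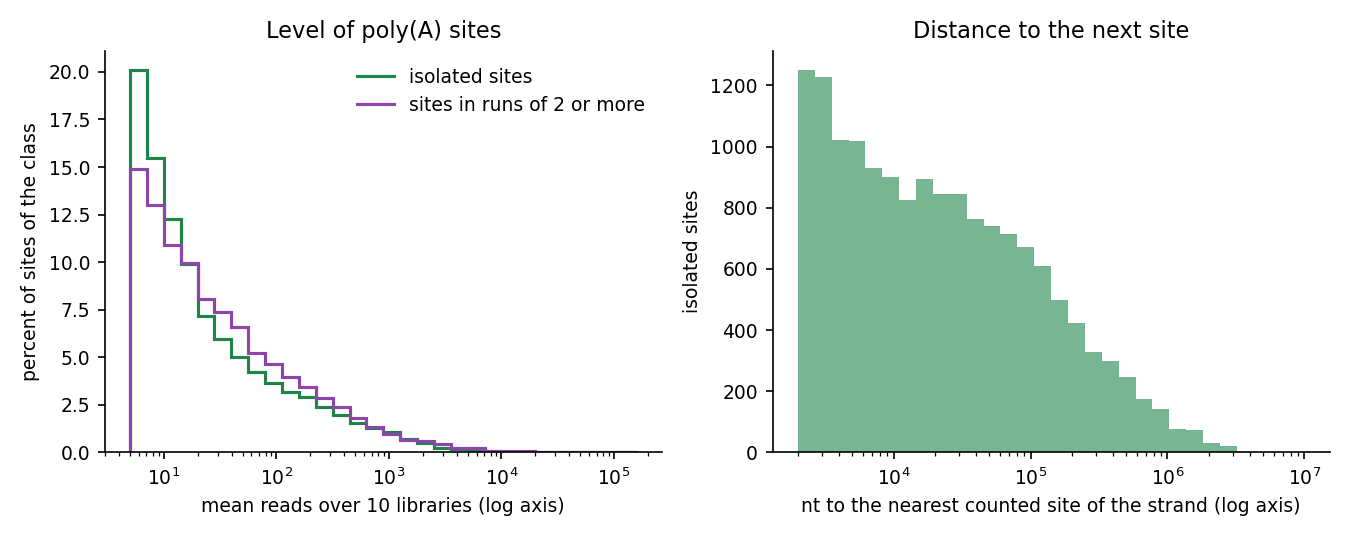
Left, percent of sites of each class by mean reads over the 10 libraries (log axis), for the 15589 isolated sites and the 19191 sites in runs of 2 or more. Right, number of isolated sites by distance in nt to the nearest site of the same strand that reached the read limit (log axis). Isolated sites are shifted to low levels, with a median of 14.7 mean reads against 20.5.

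The nearest well-counted site of the same strand lay at a median of 17633 nt (quartiles 5212 and 71455 nt). It was up to 5000 nt away for 3740 sites (24.0%), up to 10000 nt away for a further 2354 (15.1%), up to 100000 nt for 6411 (41.1%) and farther for 3074 (19.7%). At 10 sites there was no other on that strand and sequence. The median level fell a little with distance, from 16 mean reads in the nearest class to 12.7 in the farthest. A well-counted site of the other strand lay within 2000 nt of 1512 isolated sites (9.70%), downstream of 954 of them, upstream of 548 and at the same position for 10. For sites in runs the share was 13.0%. By strand, 7919 were on plus and 7670 on minus.

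All 24 nuclear chromosomes held isolated sites. Among chromosomes with at least 100 sites over the read limit, the share that was isolated ran from 38.9% on chromosome 21 and 39.7% on chromosome 3 to 51.8% on chromosome 19. A further 29 isolated sites lay on unplaced, random or alternative sequences, 9 of them on haplotype copies, where reads shared with the primary chromosome make the counts uncertain.

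At the read limit, 209 isolated sites had a mean of exactly 5 reads, for example chr19:509445 on the minus strand (all positions are hg19), and 433 sites of the table with a mean of 4.9 fell just outside. At the distance limit, chr17:41314308 on the minus strand was isolated with its neighbour 2001 nt away, and chr12:79981573 on the minus strand, with a neighbour at 1999 nt, was not.

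The share of all reads that fell at isolated sites was similar in the 3 groups. It was 27.8%, 27.7% and 30.1% in the control libraries, 28.9%, 27.9%, 26.9% and 26.7% with shRNA 1, and 27.9%, 27.8% and 27.4% with shRNA 2. The ranges overlapped, and the highest value was that of control replicate 3. Mitochondrial sites, which are outside the rule, took 9.48% to 11.7% of reads in the control, 6.56% to 8.87% with shRNA 1 and 13.9% to 14.9% with shRNA 2. Sites under the read limit took 3.73% to 4.51% in the control, 4.99% to 6.40% with shRNA 1 and 4.59% to 4.82% with shRNA 2.

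**Figure D2:**
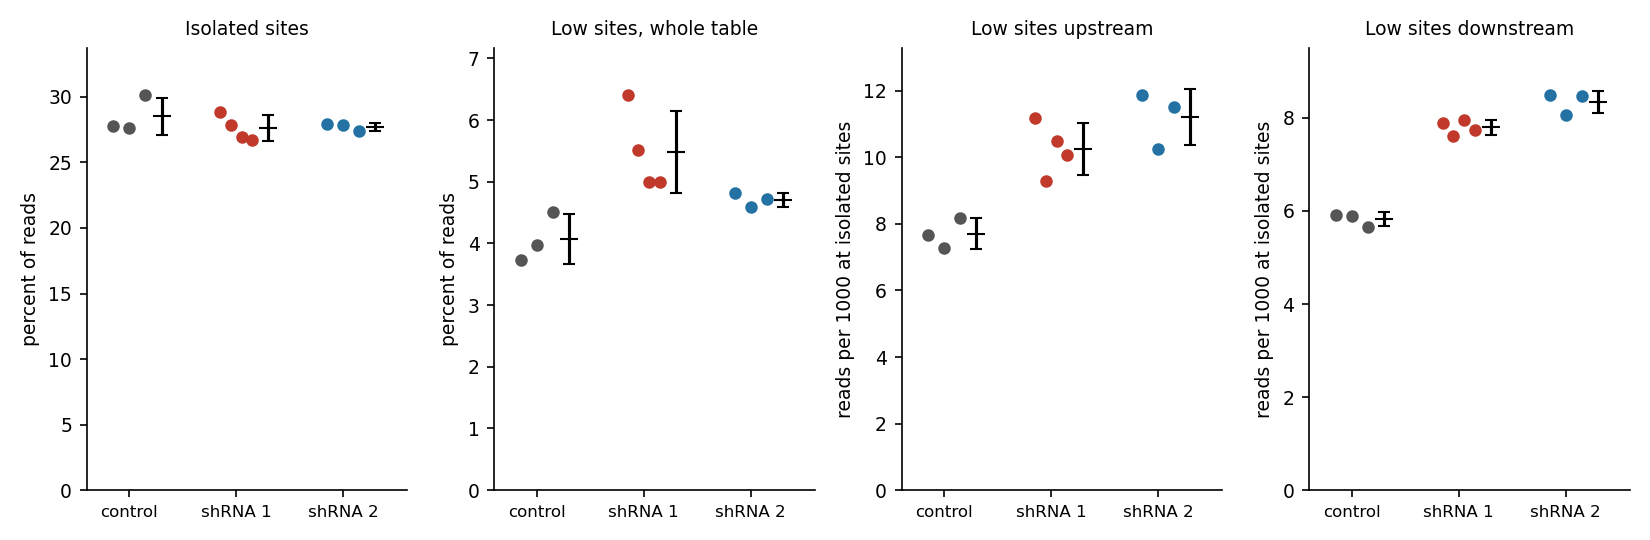
Values of each 3'READS library (points), with group mean ± SD (bars; n = 3, 4 and 3), as percent of reads at isolated sites, percent at sites under the read limit, and reads at such low sites within 2000 nt upstream and downstream per 1000 reads at isolated sites. The first measure overlaps between groups, and in the other panels every shRNA library lies above every control library.

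The first question was which isolated sites differed in level after knockdown of FIP1L1 with shRNA 1. Higher levels were called at 1189 isolated sites and lower levels at 974, together 13.9%, where the same test called 13.6% of all 36631 sites tested, 6.63% higher and 7.02% lower. The test was the edgeR quasi-likelihood F test, two-sided, at a Benjamini-Hochberg adjusted p of at most 0.05 over the whole table. The median log2 change was 0.08 over isolated sites and -0.01 over all sites. Every shRNA 1 library lay above every control library at 1962 isolated sites (12.6%, against 11% of all sites) and below at 1760 (11.3%, against 12.7%). Without the 3 libraries that stood apart, 2202 were higher and 1893 lower, together 26.3% beside 26.8% of all sites. Called in the same direction in both fits were 1991 of the 15589 isolated sites, beside 4657 of all 36631 sites tested. Leaving out control replicate 1 or 2 lowered the count from 2163 to 1197 or 1189 (7.68% and 7.63%, beside 7.6% and 7.32% of all sites).

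With shRNA 2, fewer isolated sites passed than with shRNA 1 in this fit. That order turned when only the groups compared were fitted (2652 against 1304, beside 16.1% against 7.89% of all sites). It also turned when the 3 libraries were left out (4318 against 4095, beside 27% against 26.8%). With all libraries in the fit, higher levels were called at 466 and lower levels at 585, together 6.74%, beside 6.25% of all sites tested (2.93% higher, 3.32% lower). The median log2 change was -0.07 over isolated sites and -0.01 over all sites. No overlap with the control, above or below it, was seen at 2750 isolated sites (17.6%, against 18.7% of all sites) and 2982 (19.1%, against 17.2%). The count depended strongly on single libraries, as did that of all sites. It was 521 or 527 without control replicate 1 or 2 (3.34% and 3.38%, beside 3.02% and 3.01% of all sites). Without shRNA 2 replicate 1, 2 or 3 it was 350, 363 or 401 (2.25%, 2.33% and 2.57%, beside 1.93%, 2.11% and 2.28%). Without shRNA 1 replicate 1 or 2 it was 1690 or 1668 (10.8% and 10.7%, beside 10.2% and 9.85%). Without the 3 libraries that stood apart, 1957 were higher and 2361 lower, together 27.7%, beside 27% of all sites. Called in the same direction in both fits were 1049 of the 15589 isolated sites, beside 2285 of all 36631 sites tested. Both comparisons share the control libraries.

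The direct comparison of the 2 shRNAs gave the largest of the 3 counts in this fit. With shRNA 2, 1193 isolated sites were higher and 1800 lower than with shRNA 1, together 19.2% beside 18.1% of all sites (8.7% higher, 9.41% lower). The median log2 difference was -0.14 over isolated sites and 0.02 over all sites. Non-overlapping groups were found at 2473 sites higher (15.9%, against 18.4% of all sites) and 2828 lower (18.1%, against 15%). Leaving out shRNA 2 replicate 1, 2 or 3 lowered the called count to 1588, 1526 or 1455 (10.2%, 9.79% and 9.33%, beside 9.35%, 9.23% and 8.66% of all sites). When the 3 libraries were left out it was 5274, with 2204 higher and 3070 lower, or 33.8% beside 33.1% of all sites.

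Direction changed with level. Among isolated sites of 5 to 10 mean reads, 5.07% were higher and 1.94% lower with shRNA 1 than in the control, with a median log2 change of 0.24. Among those of 1000 or more, 4.96% were higher and 21.3% lower, with a median of -0.27. The lower share rose in each of the 6 level classes, through 4.19%, 6.16%, 11.3% and 17.2%. Over all sites tested the lowest class had 4.06% higher and 2.33% lower, and the highest class 8.18% and 20.8%. In the fit without the 3 libraries, 8.51% were higher and 3.86% lower in the lowest class, and 17.4% higher and 40.0% lower in the highest. The same fit gave 7.18% and 4.90% of all sites in the lowest class, and 20.6% and 38.1% in the highest. The read limit averages 4 shRNA 1 libraries and 3 of each other group, so sites seen mainly with shRNA 1 enter more readily at the low end, and the part of this in the result was not tested.

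With shRNA 2, 1.60% of the lowest class were higher and 1.16% lower than the control (median -0.02; 1.23% and 0.759% of all sites of that level), and in the highest class 1.99% were higher and 13.4% lower (median -0.24). Over all sites tested the highest class had 3.85% higher and 11.2% lower. Of isolated sites at 1000 or more mean reads, 17.9% were higher and 41.9% lower when the 3 libraries were left out, against 17.6% and 42.3% of all sites of that level. In shRNA 2 against shRNA 1 the split at low levels went the other way: 4.35% of isolated sites at 5 to 10 mean reads were higher and 7.98% lower, against 4.60% and 5.68% of all sites of that level. At 10 to 20 mean reads, 5.90% were higher and 12.2% lower, against 6.39% and 8.34%. The spread between libraries was largest where reads were few, with a median biological coefficient of variation of 0.517 at isolated sites of 5 to 10 mean reads, 0.389 from 10 to 50 and 0.275 above.

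**Figure D3:**
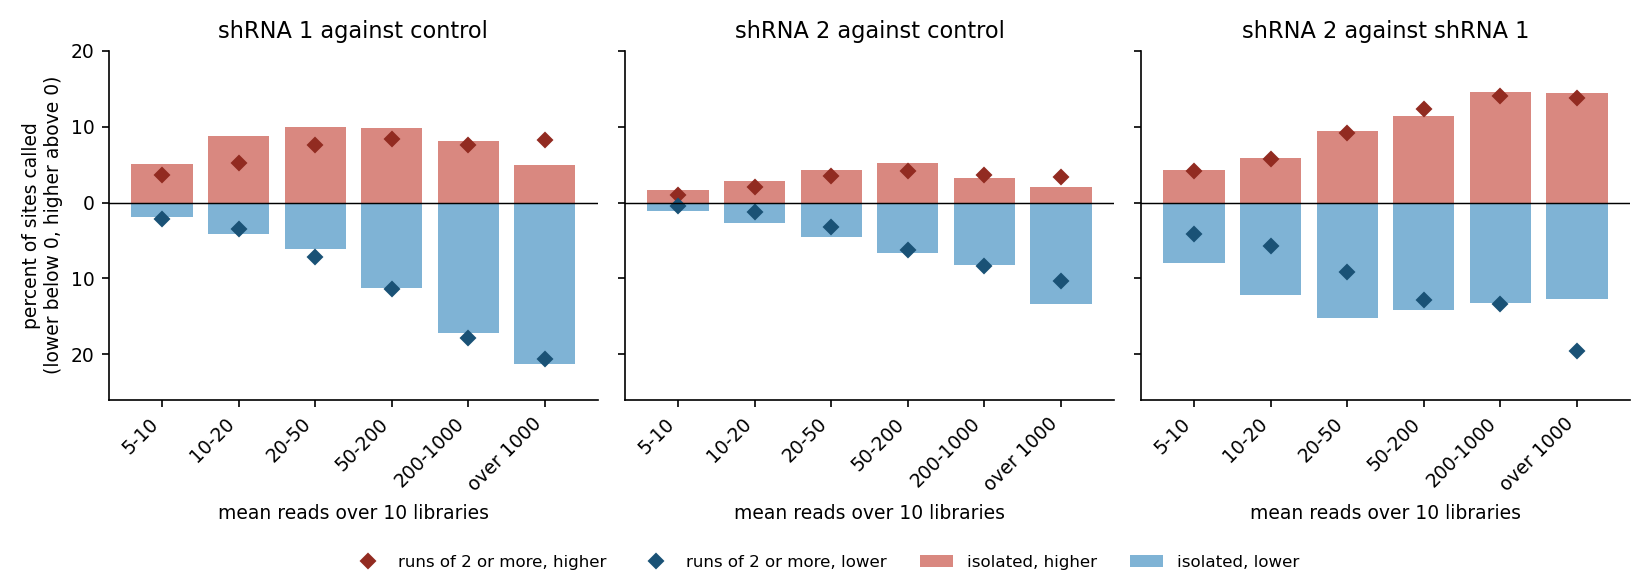
Percent of sites called higher (above 0) or lower (below 0) in each class of mean reads over the 10 libraries, in the 3 comparisons. Bars are isolated sites and diamonds sites in runs of 2 or more; with shRNA 1 the lower share of isolated sites goes from 1.94% to 21.3% across the classes.

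The calls were then split by distance, strand and chromosome. With shRNA 1, isolated sites whose nearest neighbour was at most 10000 nt away were higher in 7.86% and lower in 7.01%, and those farther away in 7.49% and 5.77%. Sites with a well-counted site of the other strand within 2000 nt were higher in 7.61% and lower in 8.20%, beside 7.63% and 6.04% for the rest. Their median level was also higher, at 32.3 against 14 mean reads. The plus and minus strands gave 7.60% and 7.65% higher. By chromosome, leaving out Y with its 13 isolated sites, the median log2 change with shRNA 1 lay between -0.03 on chromosome 22 and 0.18 on chromosome 8, and with shRNA 2 between -0.24 on chromosome 22 and -0.003 on chromosome 3.

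The 5 most abundant isolated sites came first. The top one, chr17:49249104 on the plus strand, had 10277, 10238 and 24391 CPM in the control, 10047, 5886, 5975 and 4659 CPM with shRNA 1, and 7060, 6521 and 6090 CPM with shRNA 2. Both shRNA groups lay under the control range, and control replicate 3 was by far the highest of the 10 libraries. The log2 change was -1.17 ± 0.31 (SE; edgeR adjusted p = 0.0195) with shRNA 1 and -1.19 ± 0.34 (edgeR adjusted p = 0.0469) with shRNA 2. In the fit without the 3 libraries that stood apart both were called, at -0.95 (edgeR adjusted p = 4.05e-08) and -0.65 (edgeR adjusted p = 6.14e-06). Without control replicate 3 alone the changes were -0.63 (edgeR adjusted p = 0.131) and -0.65 (edgeR adjusted p = 0.224), and neither was called. The shRNA 1 call was also lost without shRNA 1 replicate 3 or 4, and the shRNA 2 call without control replicate 1, shRNA 1 replicate 3, or any of the shRNA 2 libraries. Other settings also ended the calls at nearly the same fold: for shRNA 1 a fit of only the groups compared (-1.16, edgeR adjusted p = 0.0637), and for shRNA 2 DESeq2 size factors, a limit of 20 mean reads and leaving out mitochondrial sites (-1.15, -1.16 and -1.18, edgeR adjusted p = 0.0561, 0.0629 and 0.0514).

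The other 4 differed in pattern. At chr16:30081734 on the plus strand the control libraries had 5159, 5349 and 4871 CPM, those with shRNA 1 had 2604, 1785, 3088 and 3127 CPM, and those with shRNA 2 had 3283, 3044 and 3044 CPM. Both shRNA groups lay wholly under the control, with log2 changes of -0.95 ± 0.22 (edgeR adjusted p = 0.00813) and -0.71 ± 0.24 (edgeR adjusted p = 0.0821, not called). The shRNA 2 change was called without the 3 libraries that stood apart (-0.75, edgeR adjusted p = 1.16e-07), and also without shRNA 1 replicate 1 or 2 alone, at adjusted p = 0.0465 and 0.031 in edgeR.

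At chr9:130209954 on the minus strand, which had a well-counted site of the other strand within 2000 nt, the control had 8956, 9376 and 7292 CPM. The libraries with shRNA 1 had 6755, 10344, 12538 and 12473 CPM and overlapped the control, while those with shRNA 2 had 5576, 4807 and 4580 CPM and lay under it. Between the shRNAs the log2 difference, shRNA 2 minus shRNA 1, was -1.08 ± 0.24 (edgeR adjusted p = 0.00591). Against the control it was 0.30 (edgeR adjusted p = 0.435) and -0.78 (edgeR adjusted p = 0.0767), the latter called without shRNA 1 replicate 1, at adjusted p = 0.0164 in edgeR. With the 3 libraries left out both were called, at 0.45 (edgeR adjusted p = 0.00137) and -0.88 (edgeR adjusted p = 7.15e-09).

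The site chrX:118920469 on the minus strand had 3124, 3445 and 3335 CPM in the control, 5156, 3564, 4077 and 4036 CPM with shRNA 1, and 2286, 2358 and 2500 CPM with shRNA 2. The 3 groups did not overlap, with shRNA 1 highest and shRNA 2 lowest. With all libraries the difference between the shRNAs was called, at -0.82 ± 0.20 (edgeR adjusted p = 0.0105), and those from the control were not (edgeR adjusted p = 0.269 and 0.210). In the fit without the 3 libraries both of the latter were called, at 0.30 (edgeR adjusted p = 0.0288) and -0.46 (edgeR adjusted p = 3.19e-04). At chr9:127620163 on the minus strand, whose neighbour was 2327 nt away, the ranges were 3617 to 4368 CPM in the control, 2629 to 3928 with shRNA 1 and 2790 to 3557 with shRNA 2. No comparison of it was called with all libraries (edgeR adjusted p = 0.453, 0.396 and 0.796), and shRNA 2 against control was called without the 3 libraries, at -0.41 (edgeR adjusted p = 0.00402).

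Among the named sites that rose with shRNA 1, several were almost without reads in the control. Sites were named if they were called, reached a mean of 5 CPM and had groups that did not overlap, and were then taken by log2 change. Their folds are the largest by that choice, and some reached the limit of 5 mean reads through the shRNA 1 libraries alone, so the values describe them and support nothing beyond them. At chr5:157403844 on the minus strand the control had 0, 0 and 1 reads and shRNA 1 had 149, 197, 112 and 123 reads, or 26.0, 32.0, 12.4 and 15.3 CPM. With shRNA 2 it had 1, 6 and 4 reads. All shRNA 1 libraries were high, and the other 7 held at most 6 reads each. The ratio of summed reads, shRNA 1 to control and scaled for depth, was 464 (95% exact counting interval 83.0 to 18373; counting error only), and the difference passed in edgeR at adjusted p = 1.44e-06. The nearest well-counted site of the strand was 190541 nt away.

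At chr9:89037907 on the minus strand the control had 0, 1 and 1 reads, shRNA 1 had 235, 223, 211 and 210 reads (41.0, 36.2, 23.3 and 26.1 CPM), and shRNA 2 had 14, 13 and 8 reads. The shRNA 2 libraries lay between the groups, and both comparisons with the control were called (edgeR adjusted p = 2.67e-07 and 0.00757). The ratio of summed reads to the control was 351 with shRNA 1 (95% exact counting interval 97.0 to 2905) and 13.7 with shRNA 2 (3.53 to 118). At chr14:96851085 on the plus strand the control had 2, 4 and 1 reads, shRNA 1 had 81.7, 110, 43.5 and 50.2 CPM, and shRNA 2 had 3.38, 1.69 and 1.23 CPM. There both shRNA groups lay above the control, shRNA 1 with a log2 change of 7.82 ± 0.56 (edgeR adjusted p = 2.83e-07) and shRNA 2 less (edgeR adjusted p = 0.0165). Its neighbour lay 2466 nt away, near the limit of the rule.

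One site was named in both comparisons with the control, which share the control libraries. At chr19:41283392 on the plus strand the control had 0, 1 and 0 reads, shRNA 1 had 10.1, 14.1, 15.3 and 16.5 CPM, and shRNA 2 had 6.33, 4.49 and 3.88 CPM. Every shRNA library was above every control library, and every shRNA 1 library above every shRNA 2 library. The ratio of summed reads to the single control read was 333 with shRNA 1 (95% exact counting interval 59.4 to 13164) and 109 with shRNA 2 (19.3 to 4342). Both passed in edgeR, at adjusted p = 5.04e-07 and 5.89e-05.

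Of the 4 named sites that fell with shRNA 1, a pair lay on one strand of chromosome 18, 8360 nt apart. At chr18:33032194 on the minus strand the control had 66.2, 73.0 and 74.6 CPM, shRNA 1 had 5.41, 6.66, 2.43 and 3.23 CPM, and shRNA 2 had 31.5, 35.7 and 43.9 CPM. The log2 change was -4.03 ± 0.32 with shRNA 1 (edgeR adjusted p = 6.45e-07) and -0.94 ± 0.31 with shRNA 2 (edgeR adjusted p = 0.0775), the latter called without the 3 libraries that stood apart (edgeR adjusted p = 1.12e-05). At chr18:33023834 on the minus strand, downstream of it, the control had 9.76, 8.75 and 3.89 CPM, shRNA 1 had 2, 0, 1 and 4 reads, and shRNA 2 had 10.6, 11.1 and 12.4 CPM. The shRNA 1 libraries were low at both sites. With shRNA 2 the upstream site lay under the control range and the downstream site above it, the latter by 0.60 ± 0.42 (edgeR adjusted p = 0.449, not called). The shRNA 1 change at the downstream site was -4.87 ± 0.55 (edgeR adjusted p = 3.30e-05).

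The other two that fell with shRNA 1 were chr11:43965425 and chr17:38683253, both on the plus strand. At the first the control had 13.3, 10.1 and 10.0 CPM, shRNA 1 had 1, 0, 10 and 9 reads, and shRNA 2 had 14.8, 11.2 and 13.4 CPM. At the second the control had 67, 123 and 25 reads, shRNA 1 had 0, 0, 14 and 4 reads, and shRNA 2 had 85, 182 and 119 reads. In both the shRNA 1 libraries were low and the shRNA 2 range overlapped the control. The log2 changes with shRNA 1 were -4.04 ± 0.51 (edgeR adjusted p = 9.48e-05) and -3.88 ± 0.66 (edgeR adjusted p = 0.00110).

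With shRNA 2 the most marked rise was at chr14:24114846 on the plus strand. It had 104, 99.5 and 105 CPM with shRNA 2, from 736, 1174 and 1111 reads. The control had 2, 4 and 0 reads and shRNA 1 had 1, 6, 1 and 4 reads. The 3 shRNA 2 libraries were close together and no other library held more than 6 reads. The site thus reached the limit of 5 mean reads through the shRNA 2 libraries alone, so its values describe it and support nothing beyond it. The log2 difference was 8.57 ± 0.55 from the control (edgeR adjusted p = 6.00e-07) and 7.88 ± 0.46 from shRNA 1 (edgeR adjusted p = 1.43e-07), while shRNA 1 and the control differed by 0.68 ± 0.75 (edgeR adjusted p = 0.597). The nearest well-counted site of that strand was 77564 nt away.

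The other 2 named rises with shRNA 2 were present with both shRNAs. At chr9:117092785 on the minus strand the control had 4, 1 and 2 reads, shRNA 1 had 24.3, 6.17, 9.73 and 10.8 CPM, and shRNA 2 had 20.8, 23.3 and 14.7 CPM. Its changes from the control were 5.30 ± 0.61 (edgeR adjusted p = 3.91e-05) and 5.92 ± 0.62 (edgeR adjusted p = 6.44e-05). This site reached the limit of 5 mean reads through the shRNA libraries alone, so its values describe it and support nothing beyond it. At chr19:19657466 on the plus strand the control had 1.89, 1.67 and 1.05 CPM, shRNA 1 had 3.49, 11.4, 13.1 and 13.3 CPM, and shRNA 2 had 23.1, 24.0 and 22.7 CPM. The groups were stepped without overlap, and all 3 differences were called, with shRNA 2 above shRNA 1 by 1.16 ± 0.35 (edgeR adjusted p = 0.0315).

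The 4 named sites that fell with shRNA 2 had reads in every shRNA 1 library. At chr6:163997708 on the plus strand, whose neighbour was 2881 nt away, the control had 31, 30 and 54 reads, shRNA 1 had 111, 35, 80 and 75 reads, and shRNA 2 had 1, 0 and 0. The shRNA 2 to control ratio of summed reads was 0.00683 (95% exact counting interval 1.71e-04 to 0.0388; edgeR adjusted p = 3.49e-04). At chr13:100544823 on the plus strand the control had 39.2, 31.6 and 45.9 CPM, shRNA 1 had 48.2, 19.5, 26.9 and 32.6 CPM, and shRNA 2 had 0.703, 2.03 and 1.80 CPM. It differed from the control by -4.62 ± 0.42 with shRNA 2 (edgeR adjusted p = 2.88e-05) and by -0.29 ± 0.32 with shRNA 1 (edgeR adjusted p = 0.596).

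At chr5:34048517 on the minus strand the control had 9.33, 12.6 and 17.9 CPM, shRNA 1 had 40.7, 10.2, 11.2 and 10.6 CPM, and shRNA 2 had 1, 4 and 8 reads. The shRNA 1 libraries overlapped the control apart from replicate 1, which was the highest of all. At chr1:55125646 on the plus strand the control had 1.75, 4.06 and 4.34 CPM, shRNA 1 had 16.1, 16.2, 8.52 and 10.2 CPM, and shRNA 2 had 3, 1 and 0 reads. There the 2 shRNAs went in opposite directions, each without overlap: 1.90 ± 0.45 with shRNA 1 (edgeR adjusted p = 0.0103) and -4.46 ± 0.70 with shRNA 2 (edgeR adjusted p = 0.00177).

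Another 3 sites were named for the difference between the shRNAs. At chr22:38075807 on the plus strand the control had 4.23, 4.58 and 0.897 CPM, shRNA 1 had 10, 0, 9 and 12 reads, and shRNA 2 had 47.7, 39.2 and 29.1 CPM. The shRNA 2 libraries were high, by 5.16 ± 0.56 from shRNA 1 (edgeR adjusted p = 2.33e-05) and 3.55 ± 0.56 from the control (edgeR adjusted p = 0.00176). At chr6:165823149 on the plus strand, 655840 nt from its neighbour, shRNA 1 had 75, 193, 92 and 134 reads, the control 2, 1 and 0, and shRNA 2 had 0, 1 and 2. At chr22:30950624 on the minus strand shRNA 1 had 148, 185, 105 and 100 reads, the control 2, 2 and 3, and shRNA 2 had 3, 0 and 1. In the last 2 only the shRNA 1 libraries were high, and both sites reached the limit of 5 mean reads through them alone. The shRNA 2 to shRNA 1 ratio of summed reads at the chromosome 6 site was 0.00597 (95% exact counting interval 0.00123 to 0.0175), and the log2 difference at the chromosome 22 minus-strand site was -7.00 ± 0.67 (edgeR adjusted p = 7.25e-06).

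**Figure D4:**
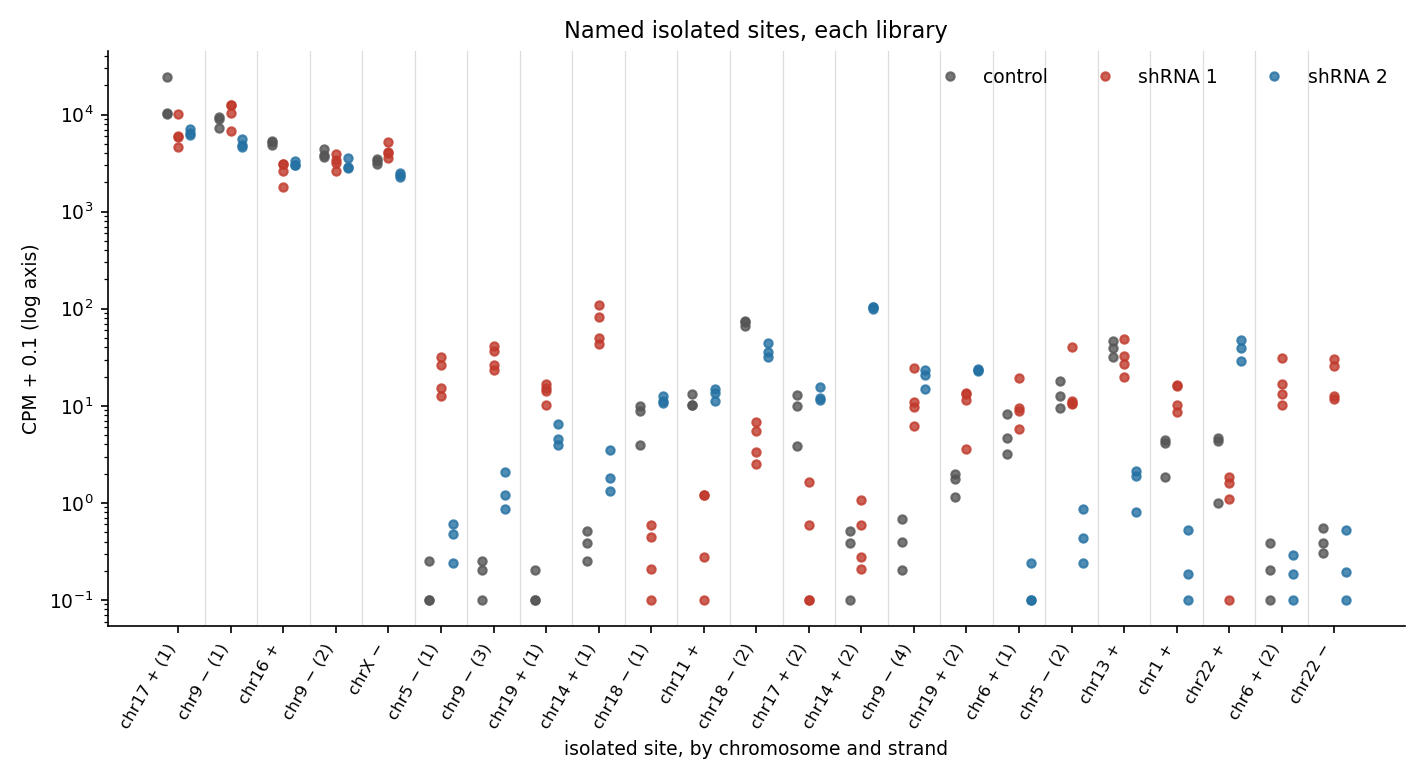
CPM + 0.1 (log axis) of the 23 named isolated sites in each of the 10 libraries, labelled by chromosome and strand in the order in which the naming rule took them. Points are libraries, coloured by group; the 5 most abundant sites stand at the left, above 1000 CPM, and most others have 1 group near 0.

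Low sites around the isolated sites were described next, since an isolated site can still have weak neighbours under the limit of 5 mean reads. At least 1 such low site of the same strand lay within 2000 nt upstream of 82.2% of isolated sites (median 2) and within 2000 nt downstream of 74.0% (median 1). Neither side held one at 1164 isolated sites (7.47%). Of 127940 low sites within these windows of all runs, 5913 lay in the windows of 2 runs. Around isolated sites, low sites were densest 51 to 100 nt upstream, at 3.72 per isolated site and 1000 nt, and thinned to 1.18 at 1001 to 2000 nt. Downstream they went from 2.49 at 51 to 100 nt to 0.880 at 1001 to 2000 nt.

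Reads at low sites made up a larger fraction in both shRNA groups than in the control. Upstream, the low sites had 7.67, 7.27 and 8.19 reads per 1000 reads at isolated sites in the control libraries, 11.2, 9.28, 10.5 and 10.1 with shRNA 1, and 11.9, 10.3 and 11.5 with shRNA 2. Every shRNA library was above every control library. Downstream the values were 5.91, 5.89 and 5.65 in the control, 7.90, 7.60, 7.95 and 7.73 with shRNA 1, and 8.49, 8.07 and 8.47 with shRNA 2, again without overlap. As these are sums over chosen sites, no p-value is given. Without the 3 libraries that stood apart, the upstream ranges were 7.27 to 7.67 in the control, 10.1 to 10.5 with shRNA 1 and 10.3 to 11.9 with shRNA 2.

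The same order was seen without the isolated sites whose low neighbours held the most reads. With the 100 sites with most upstream low-site reads left out, upstream values ran from 7.68 to 8.44 in the control. They ran from 9.74 to 11.7 with shRNA 1 and from 10.6 to 12.4 with shRNA 2. For runs of 2 or more sites the upstream values per 1000 reads at their own sites were 2.50 to 3.55, 2.90 to 3.88 and 3.83 to 4.67, and here shRNA 1 overlapped the control. Downstream of those runs they were 1.97 to 2.19, 2.31 to 2.64 and 3.14 to 3.31. The share of reads at low sites over the whole table was higher with both shRNAs as well, as given above, so the pattern was not limited to windows around isolated sites. The part of that table-wide difference in these values was not tested.

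The values were then split by distance. At 51 to 100 nt upstream the control had 0.590 to 0.620 low-site reads per 1000 reads at isolated sites, shRNA 1 had 0.783 to 0.848 and shRNA 2 had 1.02 to 1.11, so all 3 groups were apart. At 1001 to 2000 nt upstream they had 2.63 to 2.85, 3.42 to 4.03 and 3.33 to 3.93, and the 2 shRNAs overlapped. Downstream at 1001 to 2000 nt they had 1.95 to 2.05, 2.81 to 3.07 and 2.83 to 3.12. In 11 of 12 distance classes every shRNA library was above every control library. The exception was 1 to 50 nt downstream, where shRNA 1 ran from 0.443 to 0.544 and the control from 0.443 to 0.461.

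**Figure D5:**
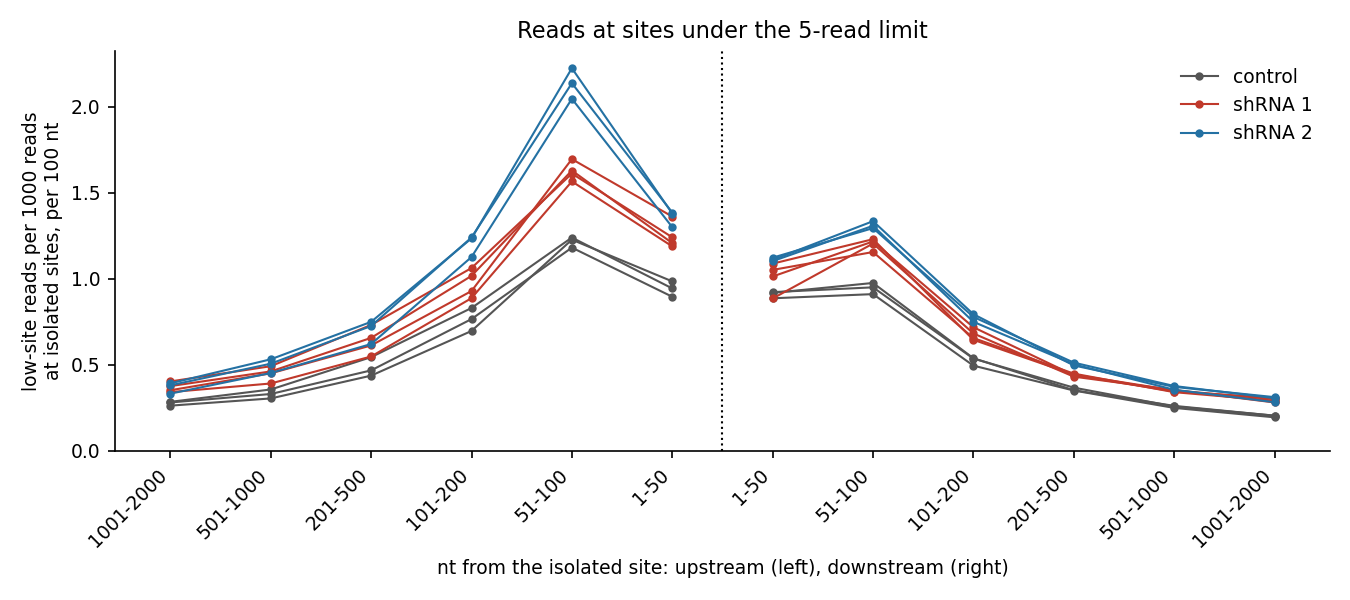
Reads at low sites (under 5 mean reads) by distance class from the isolated site, upstream at the left and downstream at the right, as reads per 1000 reads at isolated sites and per 100 nt. Each line is a library, coloured by group; the control lines are the lowest in all classes but 1 to 50 nt downstream.

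Site by site, this rise could rarely be seen. The reads of the low sites on a side were tested against those of the site itself within each library, for runs with a mean of at least 5 low-site reads on that side. With shRNA 1, upstream low sites rose against the isolated site at 3 of 1039 sites and fell at 3, where the test called 0.754% of the 1990 runs of all kinds. With shRNA 2, none passed (edgeR, background 0%), with 44 higher and 15 lower at an unadjusted p under 0.05, beside 90 and 20 of all 1990 runs. Downstream, 1 of 725 rose with shRNA 1 (background 0.146%), and none passed with shRNA 2 (background 0.146%), with 29 higher and 8 lower at an unadjusted p under 0.05, beside 75 and 17 of all 1367 runs. The median log2 change of low sites against the isolated site was 0.05 upstream and 0.09 downstream with shRNA 1, and 0.28 and 0.29 with shRNA 2. Over all runs these medians were 0.04, 0.12, 0.30 and 0.32.

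Single libraries set these counts. The 6 upstream calls with shRNA 1 became 0 without control replicate 1, 1 without control replicate 2 or 3, and 3 without shRNA 1 replicate 2 or 3 or without any of the shRNA 2 libraries. The single downstream call was lost without control replicate 1 or 2, shRNA 1 replicate 3 or 4, or shRNA 2 replicate 2 or 3. Downstream, 2 were called without shRNA 1 replicate 1 and 3 without control replicate 3. For shRNA 2, 2 upstream calls appeared without shRNA 1 replicate 1. Without the 3 libraries that stood apart, upstream low sites rose at 11 and fell at 4 isolated sites with shRNA 1 (background 2.31%), and rose at 19 and fell at 3 with shRNA 2 (background 2.51%). Downstream, that fit called 2 rises with shRNA 1 (background 0.366%) and none with shRNA 2 in edgeR (background 0.293%).

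The 2 largest upstream rises with shRNA 1 differed in kind. At chr19:9940791 on the plus strand, the isolated site had 1667, 2021 and 964 reads in the control and 352, 199, 637 and 850 with shRNA 1. Its 18 upstream low sites together had 2, 3 and 1 reads in the control, 23, 9, 23 and 9 with shRNA 1, and 4, 6 and 4 with shRNA 2. The site was lower and its low neighbours higher in every shRNA 1 library, a relative log2 change of 4.64 ± 0.92 (edgeR adjusted p = 0.00880). At chr3:49058128 on the minus strand the site itself had 12, 12 and 34 reads in the control and 5, 1, 18 and 10 with shRNA 1, while its 17 upstream low sites had 2, 2 and 2 against 22, 17, 23 and 28. With shRNA 2 the site had 3, 3 and 4 reads and the low sites 10, 4 and 11. There the low sites together exceeded the site in every library of both shRNAs and in no control library, and the relative change with shRNA 1 was 4.73 ± 1.00 (edgeR adjusted p = 0.0108).

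The 2 largest upstream falls rested on few reads. At chr17:41464609 on the minus strand the site had 1 read in each control library and 67, 57, 152 and 140 with shRNA 1, while its 11 upstream low sites had 6, 1 and 5 against 5, 5, 13 and 15. With shRNA 2 the site had 11, 11 and 21 reads and the low sites 0, 0 and 3. From control to shRNA 1 the site rose far more than its neighbours, a relative change of -5.27 ± 1.08 (edgeR adjusted p = 0.00880). Without the shRNA 1 reads this site would not have reached the limit of 5 mean reads over 10 libraries. Its values therefore describe it and support nothing beyond it. At chr4:17484658 on the minus strand the low sites had 5, 6 and 8 reads in the control, 0, 0, 0 and 1 with shRNA 1, and 10, 18 and 8 with shRNA 2, while the site itself had 21, 29 and 15, then 13, 24, 37 and 33, and 34, 61 and 73. Its change of -4.51 ± 1.16 (edgeR adjusted p = 0.0466) was not called without the 3 libraries (edgeR adjusted p = 0.102).

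Downstream, the called site was chr17:22020765 on the plus strand. It had 79, 89 and 93 reads in the control, 38, 14, 33 and 44 with shRNA 1, and 69, 84 and 66 with shRNA 2. Its 16 downstream low sites had 1, 4 and 7 reads, then 11, 11, 19 and 30, and 2, 10 and 11. The site was lower and the low sites were higher in every shRNA 1 library than in any control library, by 3.63 ± 0.80 relative to each other (edgeR adjusted p = 0.0331).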

How the data were processed

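The 3'READS table gives raw counts for each poly(A) site and the RNA-seq table raw counts for each gene, both as deposited by the authors. The build hg19 and the tools STAR 2.7.3a, cutadapt 2.6 and DESeq2 are named, without roles, per the submitters' processing notes. The distance that joined reads into sites, and whether positions count from 0 or 1, were not given in the sources used. An hg19 genome or annotation was not used here, so sites carry no gene names and no sequence. Whether each counted position is a true cleavage site was not tested. Some markers of other cell types are not reported here.

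The members, lists and alternatives were chosen with earlier results of these data known. All 36631 sites with a mean of at least 5 reads (1851 of them mitochondrial) were fitted together over 10 libraries, with TMM scaling, group terms and 7 residual degrees of freedom, in edgeR 4.0.16 (R 4.3.3), adjusted by Benjamini-Hochberg. A log2 change near 0 reads depends on edgeR's prior count and is no bound. Standard errors are the log2 change over the root of F. Low sites were tested as an interaction in the same tool, with a term per library. Sites named were the 5 most abundant, the 4 highest and 4 lowest changes against the control for each shRNA, the 3 highest and 3 lowest between shRNAs, those at the limits of the rule, and up to 2 rises and 2 falls of low sites a side and comparison. The test was also run on simulated data for shRNA 1 against control, in a set of 36631 sites. Of the changes put in, 71% of 4-fold and 13% of 2-fold ones were recovered, with 5 false calls. The low-site test on 1367 simulated runs recovered 70% of 4-fold changes with 4 false calls. The spread in that simulation was fixed in advance and not estimated from these libraries. Recovery by the low-site test in the real data is therefore not known from it. No rate was split by read level or given for isolated sites alone. Recovery at isolated sites of few reads, where the spread between libraries was largest, is therefore not known from these rates.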

Additional observations from a re-analysis of the deposited data

Results flagged for a closer look

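Of 33 groups of 4 libraries looked at among the named sites, 1 held a library far from the others, and chance alone flags about 1 in 20 such groups. At chr5:34048517 on the minus strand the shRNA 1 libraries had 40.7, 10.2, 11.2 and 10.6 CPM. The gap of replicate 1 to the next library was 0.969 of the whole range, past the critical value of 0.829 for 4 libraries. Replicate 1 is one of the 3 libraries that stood apart over the whole table.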

How the results depend on the processing

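Counts of called isolated sites moved with the design. For shRNA 1 against control (2163), the count was 1304 in a fit of those groups alone (8.36%, beside 7.89% of all sites tested). It was 831 with every site tested (5.33%, beside 0.119%). Isolated sites all reach a mean of 5 reads, while 1576151 of the 1618880 sites then tested are nuclear sites under that limit. These 2 shares, and those given below with every site tested, therefore do not compare like with like. When 1 library at a time was left out the count was 1189 to 2443 (7.63% to 15.7%, beside 7.32% to 15.8%). For shRNA 2 against control (1051), the count was 1755 with DESeq2 (11.3%, beside 10.4%) and 2652 in a fit of those groups alone (17.0%, beside 16.1%). It was 373 with every site tested (2.39%, beside 0.0482%), and 350 to 1690 with 1 library left out (2.25% to 10.8%, beside 1.93% to 10.2%). For shRNA 2 against shRNA 1 (2993), the count was 1846 at a limit of 20 mean reads. That limit left 6502 isolated sites, so the share was 28.4%, beside 27.8% of all sites tested. With every site tested the count was 1143 (7.33%, beside 0.168%), and with 1 library left out 1455 to 3330 (9.33% to 21.4%, beside 8.66% to 20.2%). The next 2 alternatives were chosen after seeing the data. Without the 3 libraries that stood apart the counts were 4095, 4318 and 5274 (26.3%, 27.7% and 33.8%, beside 26.8%, 27% and 33.1% of all sites). With a term for these libraries the counts were 3270 and 2076 against the control (21% and 13.3%, beside 21.5% and 12.6%). The replicate numbers did not pair the libraries (correlations of same-numbered libraries from -0.338 to 0.0798). A replicate block gave counts of 1261, 503 and 1959 (8.09%, 3.23% and 12.6%, beside 7.78%, 2.78% and 12%). With every site tested, the share of calls that were higher went from 55.0% to 46.8% for shRNA 1 against control, from 44.3% to 60.1% for shRNA 2 against control and from 39.9% to 54.5% between the shRNAs, so the majority turned in each.

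Lowering the read limit of the rule to 2 gave 25004 isolated sites, of which 7.51%, 2.78% and 11.4% were called; joining over 10000 nt left 9495. The mean share of reads at isolated sites (27.9%) became 33.5%, 22.1% and 16.1% with joining over 1000, 5000 and 10000 nt, 38.1% and 19.2% at limits of 10 and 2 reads, and 23.1% with both strands joined.

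Upstream low-site calls with shRNA 1 (6) became 1 within 1000 nt, 0 within 500 nt, 1 at a mean of 10 low-site reads, 3 without the nearest 50 nt, 15 without the 3 libraries, and 0 to 7 with 1 library left out. With shRNA 2 (0) they became 1 within 500 nt, 22 without the 3 libraries, and 0 to 2. Downstream with shRNA 1 (1) they became 0 within 1000 or 500 nt, 2 at a mean of 10 reads, 2 without the 3 libraries, and 0 to 3; with shRNA 2 they stayed at 0.

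Of the alternatives for 37 values of named sites, 649 stayed on the same side of the threshold, called or not, 39 lost a call, 15 gained one and 0 changed sign. The causes were not tested.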
